A study of Oidiodendron maius Zn with 6 samples.

Results

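The gene models described here were those of the ericoid mycorrhizal fungus Oidiodendron maius Zn whose transcripts took a lower share of the reads on peat than on both glucose and bovine serum albumin (BSA). They numbered 96 of the 16703 models in the deposited tables. Members were chosen by measured values. Total gene reads of the 2 libraries of each condition were summed, scaled to CPM (reads per 1e+06 gene reads), and rescaled so that the median model had the same level in all 3 conditions. A member had at least 20 CPM in glucose and in BSA. Its CPM + 0.5 was at least 2 times higher in each of these than in peat, and glucose and BSA lay less than 2-fold apart. The low level in peat, and the similar levels in glucose and BSA, are therefore conditions of the choice and not findings, and no test was made of them.

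Free-living mycelium was grown without a host plant for 45 days. All groups shared a solid Melin-Norkrans medium in a modified form, at pH 4.7 and covered with cellulose membrane. The glucose plates were amended with 1 g per L glucose, the BSA plates with 0.1 g per L of the protein and the peat plates with about 10 g dry weight of peat, per the labels. The recipe of the medium in the labels lists glucose and an ammonium salt, and the titles of the glucose libraries carry the code NH4. The labels leave unsaid whether the BSA and peat plates held these too. The kind of amendment, its amount and the rest of the medium therefore cannot be told apart. Each condition had 1 library of paired 75 bp reads and 1 of single 75 bp reads from total RNA of 1 strain.

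Ericoid mycorrhizal fungi live in the roots of plants of the heather family and in the acid, organic soils in which these plants grow. There they meet nitrogen mostly bound in proteins and polyphenols, and they are known for secreting enzymes that break down organic matter. Peat is partly decayed plant matter of this kind, glucose is a sugar taken up directly, and BSA serves as a soluble source of organic nitrogen and carbon. Models are named here by their JGI protein IDs (annotation Oidma1), as the column heads give them. The files do not pair these IDs with gene names, so no function is given to any member here, and no list of genes by function could be filled.

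The libraries set the precision. Single-read libraries held 20008329 to 24690601 gene reads and paired-read libraries 893061 to 1043870. Over all 10373 models with at least 5 expected reads in each paired-read library, the 2 libraries of a condition deviated by 1.06 times the variance of sampling, after allowing for differences between layouts shared by all conditions. With paired-read and single-read libraries of different conditions set together, the value over all models was 36.3 and 42.7. Over the 85 members that had enough reads, the libraries of a condition gave 1.3. The 2 libraries were therefore counted as 1 sample per condition (n = 1), and no value below has a replicate check. Whether separate cultures were used for them is not stated in the labels. Intervals are exact 95% intervals of counting error only. In RNA from whole mycelium, fewer cells with a transcript and less of it per cell cannot be told apart.

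Together the 96 models made up 1.6% of the gene reads in glucose (1.6 to 1.61), 1.57% in BSA (1.57 to 1.58) and 0.393% in peat (0.391 to 0.396). Their normalised level in glucose ranged from 20.2 to 1792 CPM with a median of 60.5. In BSA it ranged from 20.8 to 1797 CPM with a median of 74.5. In peat the range was 0.28 to 729 CPM and the median 15.5. In glucose the members were thus close to the models eligible for the choice, whose median was 65.5 CPM in glucose and 64.2 in peat. Ranked by CPM per kilobase among the 16416 models with a known length, the median member stood at place 2917 in glucose, 2466 in BSA and 8788 in peat.

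Low on peat did not mean silent on peat for most members. In peat, 40 of the 96 still had at least 20 CPM, while 11 had less than 5 CPM and 3 less than 1 CPM. None had 0 reads in peat over both libraries, where the fewest were 7. By the smaller of its ratios to glucose and to BSA, a member was most often 2-fold to 4-fold lower (64 models), less often 4-fold to 8-fold (14) and in 18 cases at least 8-fold lower. The median log2 ratio of peat was -1.58 to glucose and -1.77 to BSA over the members, against -0.02 and -0.03 over the 7279 models with at least 20 CPM in glucose and BSA and less than 2-fold between them. All these counts come from the contrast that chose the members.

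Among those 7279 models, the 96 members were 1.32%, the 32 at least 4-fold lower than both were 0.44% and the 18 at least 8-fold lower were 0.247%. In single comparisons, peat was at least 2-fold below glucose in 3.6% of the 8251 models that reached 20 CPM in glucose, at least 4-fold in 0.776% and at least 8-fold in 0.315%. Against BSA these shares were 3.61%, 0.965% and 0.421% of the 8080 models that reached 20 CPM there. A further 14 models with 20 CPM in both were at least 2-fold lower in peat than in each, but were no members because glucose and BSA were 2-fold or more apart. By the same limits 131 models were low on glucose only and 73 low on BSA only. At least 4-fold lower than both other conditions were 33.3% of the members, 19.8% of the models low on glucose only and 11% of those low on BSA only. At least 8-fold lower were 18 members, 16 of the models low on glucose only and 0 of those low on BSA only, by these ratios and with no test. By the same fold limits, but with 20 CPM asked in peat only, 85 models were high on peat only. Of these, 18 (21.2%) were at least 4-fold and 8 at least 8-fold above both. The models eligible for this set thus differed from those of the low sets.

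**Figure D1:**
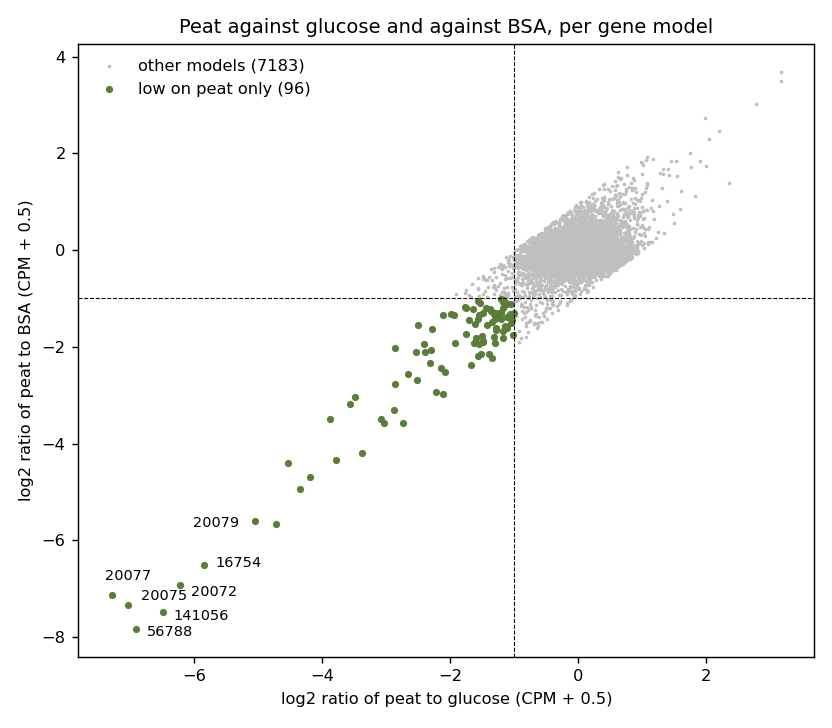
The log2 ratio of peat to glucose (x axis) and of peat to BSA (y axis) is plotted for the 7279 models with at least 20 CPM in glucose and BSA and less than 2-fold between them, with the 96 members in green and the 2-fold limits as dashed lines. Most members lie near the limits, and 7 models with their protein IDs lie apart at the lower left, at least 32-fold lower in peat than in both other conditions.

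The 7 models that were at least 32-fold lower than both held the extreme of the group. Model 20077 (718 nt) had 460.0 and 491 CPM in the paired-read and single-read glucose libraries, 441 and 436 in those of BSA, and 0 and 2.76 in those of peat. It was 185-fold lower in peat than in glucose (145 to 239.7) and 165-fold lower than in BSA (129.6 to 214). For model 20075 (1291 nt) the libraries gave 504 and 482 CPM in glucose, 654 and 596 in BSA, and 4.94 and 3.13 in peat. It was 151-fold lower in peat than in glucose (121 to 190.2) and 187-fold lower than in BSA (150.0 to 236). In both models the glucose and BSA libraries lay close together and far above both peat libraries. By CPM per kilobase 20077 stood at place 167 of all models in glucose and 11797 in peat, and 20075 at places 366 and 12525.

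Model 56788 (744 nt) had a higher level on BSA than on glucose. Its libraries gave 271 and 291 CPM in glucose, 567 and 549.5 in BSA, and 0 and 2 in peat. That made it 151-fold lower in peat than in glucose (114 to 205) and 286-fold lower than in BSA (216 to 388). Model 141056 (1081 nt) followed the same order, with 156 and 137 CPM in glucose, 332 and 273 in BSA, and 1.98 and 1 in peat. Its ratios were 133-fold (90.4 to 203) and 265-fold (180.4 to 406). In both models the BSA libraries lay above the glucose libraries, and the peat libraries lay far below all others.

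The remaining models of this extreme were less abundant on glucose, with 41.2 to 101 CPM per kilobase, against 682 for 20077. Model 20072 (606 nt) had 65 and 57.4 CPM in glucose, 82.7 and 94.7 in BSA, and 0 and 0.292 in peat, where its 7 reads were the fewest of any member. It was 206-fold lower in peat than in glucose (99.5 to 513) and 336-fold lower than in BSA (163 to 837). Model 16754 (778 nt) had 74.3 and 78.7 CPM in glucose, 154 and 125 in BSA, and 1.98 and 0.835 in peat, 89.1-fold (58.6 to 142) and 143-fold (94.1 to 228) lower. Its wide intervals reflect 22 reads in peat. Model 20079 (1102 nt) had 45.4 CPM in each glucose library, 72.8 and 66.6 in BSA, and 0 and 0.919 in peat. Its level in peat was 51.5-fold below glucose (33.8 to 82.5) and 75.8-fold below BSA (49.9 to 121). In all 3 models BSA was highest, glucose next and peat lowest, with no overlap of libraries.

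The size of these largest ratios rested on the single-read library of peat, since 3 reads in the paired-read library already amount to 2.96 CPM. Without the single-read library, peat had 0 reads of 20077, 56788, 20072 and 20079. With 3 reads set for the peat condition as the floor of a count of 0, they were at least 166-fold, 98.4-fold, 19.6-fold and 15.4-fold lower than glucose. Against BSA the same bounds were 148-fold, 187-fold, 31.9-fold and 22.7-fold. This floor is less strict than the exact intervals used elsewhere, whose lower ends for these counts were 135, 79.99, 15.9 and 12.5 against glucose, and 120.3, 152, 25.9 and 18.4 against BSA. The 2 remaining reads of 141056 gave 70.4-fold (19.5 to 581) against glucose and 140.2-fold (38.8 to 1158) against BSA. Those of 16754 gave 40-fold (11.1 to 330.4) and 64-fold (17.7 to 529). Model 20075, with 5 reads left, was 98.4-fold (42.2 to 303) and 122-fold (52.2 to 375) lower.

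Members with larger read counts on peat allowed narrower intervals. Model 169145 (1172 nt) had 1647 and 1597 CPM in glucose, 1216 and 1238 in BSA, and 98.8 and 109 in peat. It was 14.7-fold lower in peat than in glucose (14.1 to 15.3) and 11.3-fold lower than in BSA (10.9 to 11.8). Per kilobase its level was 1364 CPM in glucose, 1056 in BSA and 93 in peat. Model 180310 (1525 nt) had 607 and 566 CPM in glucose, 946 and 862 in BSA, and 25.7 and 27.7 in peat. Peat was 20.6-fold below glucose (19 to 22.2) and 31.3-fold below BSA (29 to 33.9) for this model. Model 188407 (1889 nt) stood at 239 and 223 CPM in glucose, 427 and 428 in BSA, and 5.93 and 8.1 in peat. It was 27.9-fold (24.2 to 32.3) and 53.5-fold (46.5 to 61.8) lower. In each of these models the 2 libraries of a condition lay close together and the conditions did not overlap.

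Model 106738 was an exception in length, with 4485 nt among the longest members. It had 470.3 and 498 CPM in glucose, 454 and 466 in BSA, and 57.3 and 68.6 in peat, 7.3-fold (6.93 to 7.68) and 6.83-fold (6.49 to 7.2) lower. The member with the highest share of reads was 17680 (960 nt). Its libraries gave 1801 and 1792 CPM in glucose, 1958 and 1790.0 in BSA, and 780.3 and 727 in peat. It was 2.46-fold lower in peat than in glucose (2.42 to 2.5) and 2.47-fold lower than in BSA (2.42 to 2.51). This model remained abundant on peat, at place 102 per kilobase against place 35 in glucose. Model 17756 (2021 nt) had 525 and 466 CPM in glucose, 696 and 625 in BSA, and 245 and 229 in peat. It passed the limit narrowly against glucose, at 2.04-fold (1.97 to 2.11), and stood 2.74-fold below BSA (2.65 to 2.82). With the paired-read peat library alone set against the summed glucose reads, it was 1.92-fold (1.7 to 2.19) lower and would not have been a member. Within the paired-read libraries its 245 CPM in peat lay more than 2-fold below the 525 in glucose and the 696 in BSA.

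**Figure D2:**
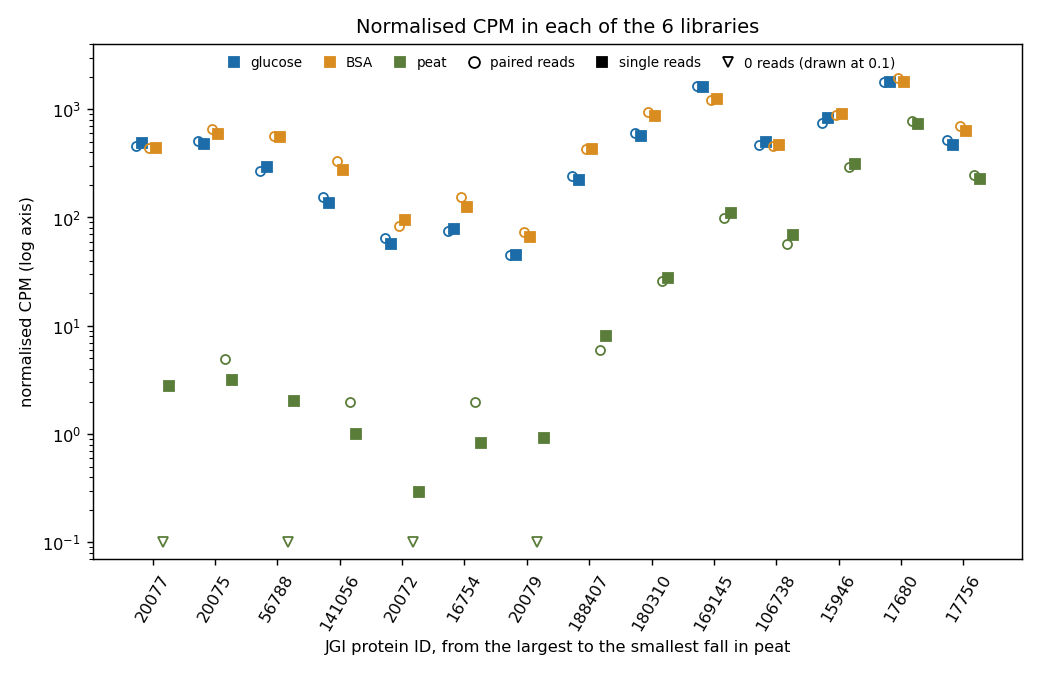
Normalised CPM on a log axis is drawn for each of the 6 libraries, for the 8 members with the largest fall in peat and the 8 with the highest mean CPM of glucose and BSA (14 models, since 20075 and 20077 belong to both). Open circles are paired-read and filled squares single-read libraries, open triangles mark 0 reads, and peat lies below all glucose and BSA libraries in every model shown.

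At the limit of the choice the members graded into the other models without a gap. Just inside were 32283, 99921 and 110202, at 2-fold, 2.01-fold and 2.02-fold by the smaller ratio of CPM + 0.5. Just outside were 57551, 194904 and 119326, at 1.99-fold, 1.97-fold and 1.95-fold. When only paired peat reads were used, 32283 was 3.16-fold (1.59 to 7.36) and 99921 4.06-fold (2.05 to 9.45) below glucose, from 8 reads each. In the same setting they were 3.88-fold (1.95 to 9.02) and 6.9-fold (3.49 to 16) below BSA. In 96 of the 96 members both peat libraries lay below all 4 glucose and BSA libraries, which the choice largely fixed. Of the 7279 eligible models 16.9% showed this separation.

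The choice could also be made on the single-read libraries alone. It then gave 95 models, 94 of them among the 96. In the paired-read libraries, whose reads had no part in that choice, all 95 were lower in peat than in glucose and in BSA, and 75 were at least 2-fold lower than both. Their median log2 ratio of peat to glucose was -1.68 in the paired-read libraries and -1.62 in the single-read libraries, and that of peat to BSA was -1.65 and -1.79. Both layouts count as 1 sample, so these values bear on sequencing noise and not on the difference between cultures.

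Between glucose and BSA the choice left a range of just under 2-fold in either direction. Higher in BSA than in glucose were 59 of the 96 members (61.5%), against 48.3% of the 7279 eligible models, while scaling by total counts gave 48 (50%) and 35.7%. With the trimmed-mean (TMM) factors of edgeR the members higher in BSA numbered 62, and with its median-ratio (RLE) factors 63, against 51.6% and 56.4% of the eligible models. With the scaling of the choice, 18 members were at least 1.5-fold higher in BSA (18.8%, against 8.66% of the eligible models). At least 1.5-fold lower were 6 (6.25% against 9.69%). As a group, the models lowest on peat had the highest median ratio of BSA to glucose. This did not hold model by model: 20077, with the largest fall by the smaller ratio, was at 0.891. Model 139660, 2-fold to 4-fold lower on peat by that ratio, was at 1.87. Of the 18 at least 8-fold lower, 13 were higher in BSA under each of these 4 scalings, 7 of them at least 1.5-fold, and 0 were at least 1.5-fold lower in BSA by these ratios. Their median ratio of BSA to glucose was 1.47-fold, against 1.07-fold in the 14 members 4-fold to 8-fold lower and 1.05-fold in the other 64. No test of this difference was made, since each condition was 1 sample and the choice used the same libraries.

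The extremes of this range were 141056, at 2-fold higher in BSA by reads (1.91 to 2.09) and just under 2-fold with 0.5 CPM added, and 19302. Model 19302 (352 nt) was the shortest member and had 152 and 173 CPM in glucose, 87.6 and 88.1 in BSA, and 47.4 and 29.1 in peat. It formed a step from glucose over BSA to peat, with BSA at 0.512 times glucose (0.483 to 0.542). Peat was 5.75-fold below glucose (5.32 to 6.23) and 2.95-fold below BSA (2.7 to 3.22). By paired peat reads alone these values were 3.65-fold (2.75 to 4.96) and 1.87-fold (1.4 to 2.54), so that 19302 then missed the limit against BSA.

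**Figure D3:**
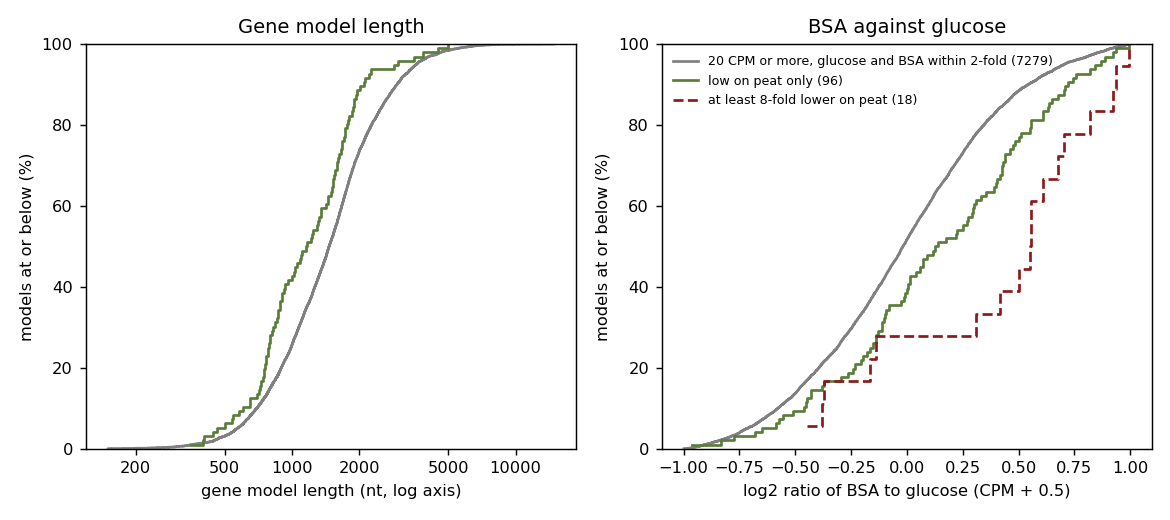
Left, the share of models at or below each gene model length (log axis), and right, at or below each log2 ratio of BSA to glucose, for the 7279 eligible models (grey), the 96 members (green) and, right only, the 18 members at least 8-fold lower on peat (dashed red). The members are shorter than the eligible models (median 1162.5 against 1467 nt) and lie further towards BSA, most of all the 18.

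Gene model length also differed between the members and the models they were chosen from. The members had a median of 1162.5 nt (quartiles 788 and 1669), against 1467 nt (990.0 and 2059) in the 7279 eligible models. Up to 1000 nt long were 42.7% of the members and 25.6% of the eligible models, and over 3000 nt 4.17% and 9.45%. Length moved with the ratio to glucose in all models. The median log2 ratio of peat to glucose was -0.34 in eligible models over 500 and up to 1000 nt, and 0.35 in those over 3000 nt. Against BSA the same medians were -0.01 and -0.02. The choice asked for at least 2-fold between BSA and peat, so the ratio of BSA to glucose was not free of it, least of all in short models. Up to 1000 nt, 23 of the 41 members (56.1%) were higher in BSA, against 20.8% of the 1866 eligible models, while scaling by total counts gave 16 (39%) and 13.6%. Over 2000 nt, 7 of the 11 members were higher in BSA (63.6%), against 78.6% of the eligible models, and by total counts 6 (54.5%) against 64.9%. With this trend removed, 83 models met the limits, 75 of them members, and their median length was 1455 nt. The removal took the length trend out of the ratios before the choice. A median length near the 1467 nt of the eligible models was therefore largely built in, and nothing is drawn from it. Of the 83 models, 27 were at least 4-fold lower than both, against 32 before. Removing the trend moved the median log2 ratio of peat to glucose over all models by 0.14.

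Reads that match more than 1 gene model played no part in the group. Of the 798784 reads of the 96 members in all 6 libraries, 0 matched another model as well. Among the eligible models 116 (1.59%) had at least 1 such read. Hence no member had an uncertain level from reads shared with a near-identical copy, as far as the authors' count of unique reads shows this.

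Several members bore neighbouring protein IDs. In the numeric order of all 16703 IDs, 22 of the 96 members (22.9%) stood next to another member. They formed 5 runs of 3 to 5 models and 1 pair, and 74 members stood alone. Members made up 0.575% of all models and 1.32% of the 7279 eligible models. Both of these shares count single models, while a member could have another on either side, so they are no like measure of the 22.9%. Of the models low on glucose only, 11.5% stood next to another of their set, of those low on BSA only 11% and of those high on peat only 7.06%. The set high on peat only had its CPM minimum in peat alone. These shares are descriptions without a test. No genome position was used here, so nothing is said of how numeric order relates to order along the chromosomes.

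The run from 20072 to 20079 held 4 of the 7 models at least 32-fold lower on peat, namely 20072, 20075, 20077 and 20079, whose values stand above. A run ends by definition at a model that is no member. The ID before the run, 20069, had 93 CPM in glucose, 44.5 in BSA and 74.2 in peat. On the other side 20080 had 13.4, 11.8 and 7.05 CPM, and 20081 had 312, 251 and 297. Within the run the level in glucose spanned 41.2 to 682 CPM per kilobase, and the log2 ratio of peat to glucose spanned -7.28 to -5.05.

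The run from 15941 to 15951 was the longest, with 5 short models of 398 to 825 nt. Its most abundant model, 15946, had 751 and 837 CPM in glucose, 880.1 and 910.4 in BSA, and 295 and 311 in peat, 2.68-fold below glucose (2.61 to 2.75) and 2.93-fold below BSA (2.85 to 3.01). Per kilobase its level in glucose was 1083 CPM, and the other 4 ran from 26.4 (15941) to 314 CPM per kilobase (15943). All 5 had log2 ratios of peat to glucose from -1.7 to -1.28, although their levels differed widely. The limit of the choice narrowed this range from above. Against BSA the log2 ratios of peat spread further, from -2.38 to -1.06, and those of BSA to glucose ran from -0.51 to 0.71. For 15943 the paired-read value was lower than the single-read value in every condition, at 83.5 against 127 CPM in glucose and 30.6 against 52.2 in peat. With the paired-read library of peat alone it was therefore 4.11-fold (2.89 to 6.06) below glucose and 4.31-fold (3.03 to 6.36) below BSA, in place of 2.44-fold and 2.56-fold. For 15951 peat was then 2.6-fold below glucose (1.84 to 3.78) and 1.82-fold below BSA (1.29 to 2.65), short of the limit, in place of 2.99-fold and 2.1-fold. Its glucose libraries also disagreed, at 53.6 CPM with paired and 85.4 with single reads. On the log2 scale its ratio of peat to glucose was -0.92 without the glucose single-read library, short of 2-fold, in place of -1.56. Likewise, 15943 was short of 2-fold against BSA without the BSA single-read library, at a log2 ratio of -0.76 in place of -1.35. Leaving out 1 library sets paired reads of a condition against sums of both layouts in the others. Within the paired-read libraries 15943 had 83.5 CPM in glucose, 90.1 in BSA and 30.6 in peat, more than 2-fold below both. The next ID, 15952, had 85.3, 64.2 and 73.1 CPM in glucose, BSA and peat.

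The run from 150152 to 150156 held 3 models with nearly one ratio of peat to glucose by summed reads. Their log2 ratios of peat to BSA ran from -2.15 to -1.88. Model 150152 had 233 and 188 CPM in glucose, 263 and 256 in BSA, and 64.2 and 68.1 in peat. Model 150156 had 203 and 213 CPM in glucose, 274 and 281 in BSA, and 85.9 and 75.5 in peat. Between them, 150154 was less abundant, with 24.5 CPM per kilobase in glucose, 38.2 in BSA and 8.37 in peat, against 156, 210.4 and 55.8 for 150152. By summed reads the log2 ratios of peat to glucose of the 3 lay between -1.51 and -1.48. All 3 were higher in BSA than in glucose, by 1.32-fold to 1.56-fold. With the paired-read peat library alone the ratios to glucose lay further apart, with overlapping intervals. Peat was then 2.98-fold (2.33 to 3.87) lower for 150152, 2.16-fold (1.36 to 3.66) for 150154 and 2.49-fold (2.01 to 3.11) for 150156. The preceding ID, 150127, had 18.6 CPM in glucose, 42.6 in BSA and 8.29 in peat. It was no member, since glucose lay under 20 CPM and more than 2-fold below BSA. It was the only 1 of 30 models flanking the 5 runs, 3 on each side, that was at least 2-fold lower in peat than in both. Of the 30, 12 had at least 20 CPM in glucose and BSA, and 23 lay within 2-fold in peat of both. The models directly beside a run were no members by definition, and models under 20 CPM in glucose or BSA could not be members. The way runs were defined thus limited how many flanking models could be low on peat.

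The run from 21633 to 21637 held 4 models with log2 ratios of BSA to glucose from -0.46 to -0.08 by summed reads, although 21634 turned to 0.01 with RLE factors. The ratios of 21634, 0.947 (0.894 to 1.004), and of 21637, 0.926 (0.826 to 1.037), had intervals that include no difference. In the paired-read libraries BSA lay above glucose for 21633, 21634 (115 against 107 CPM) and 21637 (23.5 against 22.7). Only 21636 was lower in BSA there, at 22.2 against 30.9 CPM. These paired-read values rested on few reads and their differences were not tested. BSA against glucose had 93 against 104 reads for 21634, 19 against 22 for 21637 and 18 against 30 for 21636. Model 21633 had 232 and 249 CPM in glucose, 264 and 224 in BSA, and 91.9 and 83.4 in peat, 2.97-fold below glucose (2.82 to 3.12). Model 21634 had similar ratios at a lower level, with 3.09-fold (2.86 to 3.34) against glucose. The other two were scarcer and had larger ratios, 21636 by 5.7-fold (4.7 to 6.95) and 21637 by 6.93-fold (5.66 to 8.55) against glucose. Their peat levels were 7.12 and 6.79 CPM per kilobase, against 121 for 21633.

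The run from 173677 to 173701 was wider in ID numbers and low in level. Its 4 models had 16.5 to 51.3 CPM per kilobase in glucose and 4.33 to 7.76 in peat. Model 173677 had 57.8 and 52.2 CPM in glucose, 53.1 and 72 in BSA, and 10.9 and 6.56 in peat, 7.79-fold (6.62 to 9.21) below glucose. The ratios of this run rested on the peat single-read library. Without it 173677 was 4.85-fold (2.7 to 9.75) and 173692 10.1-fold (3.92 to 37) below glucose, in place of 7.79-fold and 6.05-fold, and against BSA they were 6.58-fold (3.67 to 13.2) and 11.4-fold (4.43 to 41.8), in place of 10.6-fold and 6.85-fold. In the same setting 173688 was 1.66-fold (0.959 to 3.13) and 173701 1.6-fold (0.96 to 2.87) below glucose, with intervals that include no difference, in place of 3.26-fold and 3.08-fold. Against BSA 173688 was 2.04-fold (1.18 to 3.86) and 173701 2.5-fold (1.5 to 4.48) lower, in place of 4.01-fold and 4.81-fold.

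**Figure D4:**
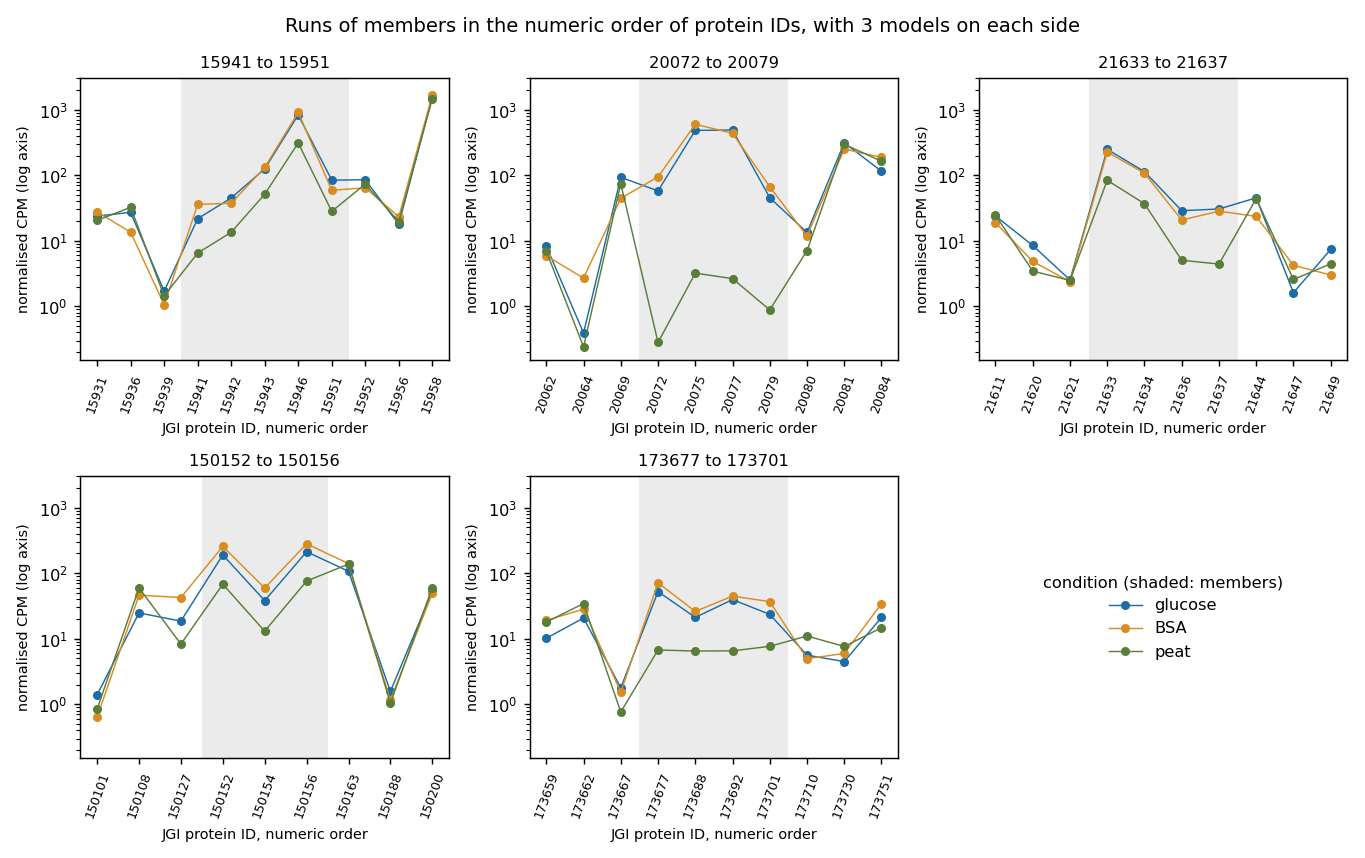
Normalised CPM on a log axis in glucose, BSA and peat (reads of both libraries summed) is drawn for the 5 runs of members, shaded, and 3 models on each side in the numeric order of protein IDs. In all 5 shaded runs peat lies below glucose and BSA, most of all from 20072 to 20079. Among the 30 flanking models only 150127 is at least 2-fold lower in peat than in both, and the models directly beside a run are no members by definition.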

How the data were processed

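The authors deposited a table of gene models for each library. Unique and total gene reads are raw counts deposited by the authors, per the file headers, and were used as they stand. The RPKM values deposited by the authors served only to solve for gene model length, which came out whole in 90022 values within 0.0001418 nt. Of the lengths, 68.1% were multiples of 3. The labels and files used here name no aligner.

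Total gene reads were summed by condition, scaled to CPM and divided by the median ratio to glucose over 7309 models with at least 20 CPM in all conditions (factors 0.907 for BSA and 0.97 for peat). Library CPM used the factor of its condition. Folds are ratios of normalised reads with exact 95% (Clopper-Pearson) intervals, and log2 ratios use a pseudocount of 0.5 CPM. The depth of each sample limits precision, and 3 reads equal 0.125 to 0.165 CPM in the single-read and 2.96 to 3.7 in the paired-read libraries. With 1 sample per condition no test was run. The rule was run on simulated counts with planted falls in peat, sampling noise only and the same profile in glucose and BSA. Such counts hold no variation between cultures, so this bears on the computation alone.

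Named were the 8 members with the largest fall, the 8 with the highest mean CPM, 3 on either side of the limit, runs of 3 or more IDs, and the extremes of BSA to glucose. Flanking models were named to show the edges of the runs. The members, lists and limits were chosen with earlier results of these data known. Alternatives comprised edgeR 4.0.16 TMM and RLE factors (R 4.3.3), other scalings, filters, pseudocounts and libraries. Python 3.11.15 with pandas 2.3.3 and scipy 1.17.1 was used.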

Additional observations from a re-analysis of the deposited data

How the results depend on the processing

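The 96 members numbered 52 with a minimum of 50 CPM and 186 with no minimum CPM, and the 32 at least 4-fold lower numbered 20 with a minimum of 50 CPM, since fewer or more models were then eligible. The median log2 ratio of peat to BSA was -1.53 with no minimum CPM. Leaving out 1 library gave 83 to 168 members, of which 30 to 34 were at least 4-fold lower. Medians then ran from -1.74 to -1.57 for peat to glucose and from -1.9 to -1.5 for peat to BSA. The 168 arose without the single-read library of peat, when 81 of the 96 were among them. The paired-read libraries alone gave 126, 68 of them shared. Under the other alternatives the members numbered 76 to 118. Of the 96, all 96 were lower in peat than in both other conditions under each setting, total count scaling and the TMM and RLE factors included, which their choice on the same reads nearly fixed. The 33 named members kept their direction in all 1122 values, and 30 values, in 15 of these members, changed more than 1.5 times on leaving out a library. The minimum applied before rescaling, added after the data were seen, gave 93. No paired analysis was possible because the labels give no replicate numbers and each condition counted as 1 sample. Depth limits the largest ratios, and the design of 1 sample per condition limits all of them.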
